A study of Mus musculus with 9 samples.

Results

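Ephrins, semaphorins, Slits, netrin-G proteins and their receptors are cell-surface and secreted cues that steer growing axons, and in the adult brain they act at spines and synapses. The genes described here were chosen by their symbols: Eph receptors and ephrins, semaphorins, plexins, neuropilins, Slits, Robo receptors, Unc5 receptors and netrin-G genes. Of 21423 genes measured in the mouse nucleus accumbens, 66 matched, and 59 of these had a mean of at least 1 RPKM (reads scaled to gene model length and to the reads of the lane) over all lanes. The 59 genes made up part of 14051 genes that passed this limit. The nucleus accumbens is the reward-related region at the base of the striatum, and most of its neurons are inhibitory medium spiny neurons.

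All mice were adult male C57BL/6, 2 to 5 months old, and were injected intraperitoneally once a day for 7 days. The saline group received 10 ml/kg per day and was killed 24 h after the last injection. The cocaine group received cocaine, at 10 or 20 mg/kg per day, with the same 24 h before harvest. The withdrawal group received cocaine in the same way and then stayed in the home cage for 8 days, so no saline group had its harvest time. The labels do not tie a cocaine dose to a group. Each group is represented by 1 library, built from the pooled RNA of 8 mice and sequenced in 3 lanes. Lanes are repeat runs of 1 library, so their spread is sequencing error, no difference has a replicate check between animals, and no p-value was computed.

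Ephrins are membrane-bound ligands of the Eph receptor tyrosine kinases, and ligand and receptor can both signal into their own cell. Semaphorins bind plexins, whose cytoplasmic part acts on small GTPases, and the secreted class 3 semaphorins mostly need a neuropilin as well. Slits bind Robo receptors, Unc5 receptors bind netrins, and netrin-G proteins, which are anchored in the membrane, bind the synaptic proteins Lrrc4c and Lrrc4. In the striatum, semaphorin 3E and plexin D1 are known for their part in choosing synapses between thalamic axons and medium spiny neurons.

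Plexins made up 6 of the 12 genes called higher in withdrawal than in saline, that is, at least 1.5 times higher with no overlap of lanes. Over all tested genes 3.96% were called higher. When differences were centred on genes of like length, as described below, 2 of the 9 plexins were still called. The start regions of 3 plexin genes, of which Plxna3 is among the 12 while Plxnc1 and Plxnd1 were called in no comparison, are shown for the SP1 boxes they hold, with that of Robo1, a Slit receptor among the 12. Each is the 250 bases before the first base of a transcript, 5′ to 3′ on the gene's strand, from RefSeq on GRCm38.p6. Capitals mark the SP1 box GGGCGG or its reverse complement. Plxna3 lies on chrX:74328816-74329065 (plus strand), Plxnc1 on chr10:94944846-94945095 (minus strand), Plxnd1 on chr6:115995006-115995255 (minus strand) and Robo1 on chr16:72662899-72663148 (plus strand). These 4 windows overlap no annotated exon.
Plxna3: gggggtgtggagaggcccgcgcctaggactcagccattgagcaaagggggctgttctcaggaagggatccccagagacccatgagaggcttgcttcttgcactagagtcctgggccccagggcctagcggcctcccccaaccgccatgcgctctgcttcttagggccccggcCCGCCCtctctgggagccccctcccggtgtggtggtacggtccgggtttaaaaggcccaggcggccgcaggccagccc
Plxnc1: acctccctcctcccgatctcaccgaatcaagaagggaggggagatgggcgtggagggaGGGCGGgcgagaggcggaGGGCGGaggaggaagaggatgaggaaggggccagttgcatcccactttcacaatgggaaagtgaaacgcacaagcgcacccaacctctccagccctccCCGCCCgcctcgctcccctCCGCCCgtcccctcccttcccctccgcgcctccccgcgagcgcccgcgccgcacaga
Plxnd1: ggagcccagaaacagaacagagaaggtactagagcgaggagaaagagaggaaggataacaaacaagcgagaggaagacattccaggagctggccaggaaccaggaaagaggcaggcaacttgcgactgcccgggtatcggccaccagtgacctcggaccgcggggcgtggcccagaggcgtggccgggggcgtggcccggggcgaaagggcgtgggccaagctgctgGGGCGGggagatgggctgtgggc
Robo1: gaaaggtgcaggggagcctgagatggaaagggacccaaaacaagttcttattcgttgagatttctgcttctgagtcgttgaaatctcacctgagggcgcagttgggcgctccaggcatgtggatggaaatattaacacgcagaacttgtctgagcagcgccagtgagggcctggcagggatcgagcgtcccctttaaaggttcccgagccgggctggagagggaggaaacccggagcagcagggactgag

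The plexin windows hold the SP1 box, which the Sp/KLF transcription factors bind, 1 time in Plxna3, 4 times in Plxnc1 and 1 time in Plxnd1, while the Robo1 window has none. For 52 of the 59 genes RefSeq gave 68 such windows, and 49 of them (72.1%) held an SP1 box on either strand, against 32.7% of 32851 windows of the same length over all genes. Base composition differed too, with a median of 64.4% GC and 16 CpG in the windows of the 52 genes and 52.4% GC and 6 CpG in all windows. The full cAMP response element TGACGTCA, bound by CREB, was in 0 of the 68 windows and in 1.55% of all windows, and its shorter form TGACG, counted also where it is part of the full element, in 5 (7.35%) and 17.8%. The AP-1 site TGANTCA, bound by Fos and Jun proteins, was in 3 (4.41%) against 6.75%, the E-box CACGTG in 4 (5.88%) against 6.02%, and the TATA box TATAAA in 2 (2.94%) against 12.4%. All were searched on both strands. Of the 9 windows that belong to genes called higher in a comparison, 7 held the SP1 box and none held the other motifs. The called genes Plxna1, Plxna4 and Slit1 had no window. Of these 9 windows all but those of Plxna3 and Robo1 overlap annotated exons, those of Plxna2 and Plxnb1 with all 250 bases.

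Levels were read as RPKM, which are per length and so can be set side by side between genes. Efnb3, the transmembrane ligand ephrin-B3, was the highest of the 59 genes in saline, with 66.4, 73.2 and 67.8 RPKM in the 3 lanes. It was followed by the membrane semaphorins Sema6b (35.3, 33.3 and 34.4 RPKM) and Sema4a (26.0, 32.3 and 27.8 RPKM), by the netrin receptor Unc5a (24.3, 25.5 and 24.1 RPKM) and by plexin B2 (21.1, 25.0 and 26.3 RPKM). The lanes of Sema6b lay above those of Sema4a, while those of Unc5a and Plxnb2 overlapped. The 2 genes just above the 1 RPKM limit were Sema3g (mean 1.14 RPKM over 9 lanes) and Efna1 (2.19 RPKM), and the 2 just below were Sema3b (0.817 RPKM) and Sema3d (0.718 RPKM). Below it also lay Efna4, Epha1, Epha2, Epha3 and Robo3, at 0.170 to 0.549 RPKM.

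**Figure D1:**
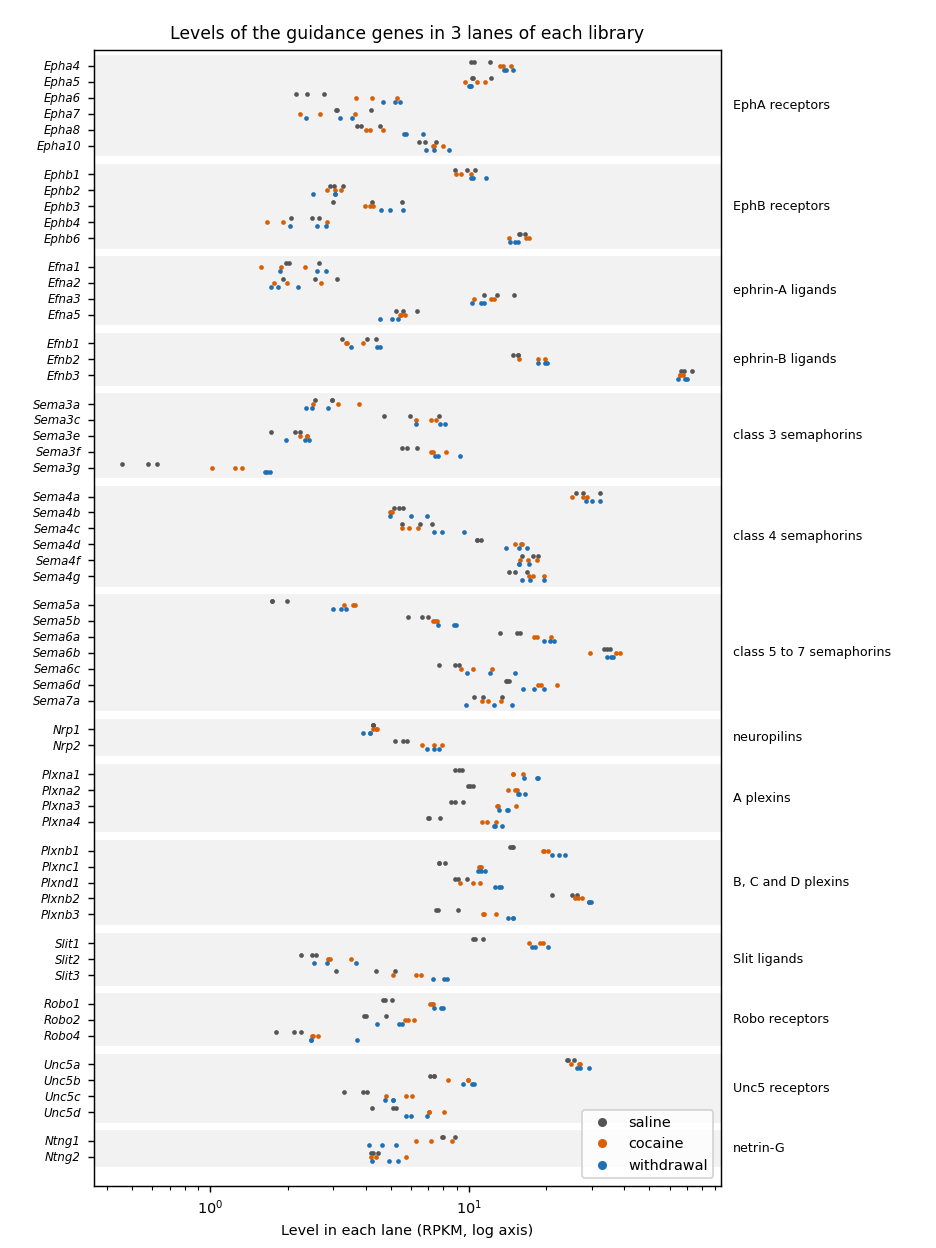
Level of each of the 59 guidance genes in RPKM (log axis), 1 point per lane and 3 lanes per library, grouped by role, with saline in grey, cocaine in orange and withdrawal in blue. The A plexins have all saline points to the left of the cocaine and withdrawal points, while Efnb3 lies between 64.4 and 73.2 RPKM in all 9 lanes.

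Differences are given as means over lanes of log2(RPKM + 0.5) with the standard error from the lanes, a scale that understates changes of low genes. A gene was called when 2 libraries differed by at least 1.5 times on this scale and none of their lanes overlapped. Cocaine against saline addressed what differs 24 h after repeated cocaine, and 6 of the 59 genes were called higher (10.2%) and 0 lower. Over all tested genes 2.93% were called higher and 2.41% lower, 5.33% in all. Withdrawal against saline gave 12 calls higher (20.3%) and 1 lower (1.69%), against 3.96% and 3.37% of all tested genes, 7.33% in all. Both comparisons use the same saline library, so they are not independent of each other. Withdrawal against cocaine, which does not use it, gave 0 higher and 1 lower, against 0.47% and 0.548% of all tested genes, 1.02% in all. The called genes were plexins, Slits, Robo1, Epha6, Sema3g, Sema5a and, in the lower direction, Ntng1. Smaller differences leaned the same way: without a size limit, all cocaine lanes lay above all saline lanes for 29 of the 59 genes (49.2%, against 18.3% of all genes), and all withdrawal lanes above all saline lanes for 31 (52.5%, against 18.6%). Withdrawal lanes lay above all cocaine lanes for 13 (22.0%, against 8.66%). These shares were not set against genes of like length. In both comparisons with saline, differences rose with gene length over the whole table, as given below. The median difference of the 59 genes was 0.19 for cocaine and 0.28 for withdrawal against saline, where all tested genes had -0.047 and -0.056. The 59 include Sema3g, which passed the limit through its cocaine and withdrawal lanes and so had to differ.

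Gene length moved with these differences across the whole table. Over 14051 genes, which are not independent replicates and share the same 3 libraries, Spearman's rho between gene model length and the difference was 0.46 for cocaine against saline and 0.42 for withdrawal against saline. The 59 guidance genes were long: their gene models had a median of 6256 bp, the whole tested table had one of 3531 bp, and 53 of them were longer than that median. When each difference was centred on the median of genes of like length (20 bins), the genes called higher were 3 (5.08%) in cocaine, where 3.39% of all genes were called higher, and 6 (10.2%) in withdrawal, where 4.23% were. The 3 were Epha6, Sema3g and Slit1, and the 6 were these with Plxna1, Plxnb3 and Slit3. Both counts include Sema3g, which passed the 1 RPKM limit through its cocaine and withdrawal lanes, so both shares are raised by the choice of genes. Ntng1 was still called lower in withdrawal, which made 7 calls (11.9%) against 5.47% of all genes in either direction, where cocaine had 3 against 4.09%. It was also the 1 call left between withdrawal and cocaine, against 1.01% of all genes. The length-centred medians of the 59 genes were 0.13 and 0.18, against 0 for all genes by construction. Values centred by length are therefore given below beside the calls of the guidance genes, and for the other genes named it is said which calls were lost. Scaling to the 75th percentile in place of the deposited totals shifted the whole table upward, to 3.81% higher and 1.45% lower in cocaine and 5.44% higher and 1.99% lower in withdrawal. Under this scaling 11 of the 59 guidance genes were called higher in cocaine (18.6%) and 13 in withdrawal (22.0%).

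**Figure D2:**
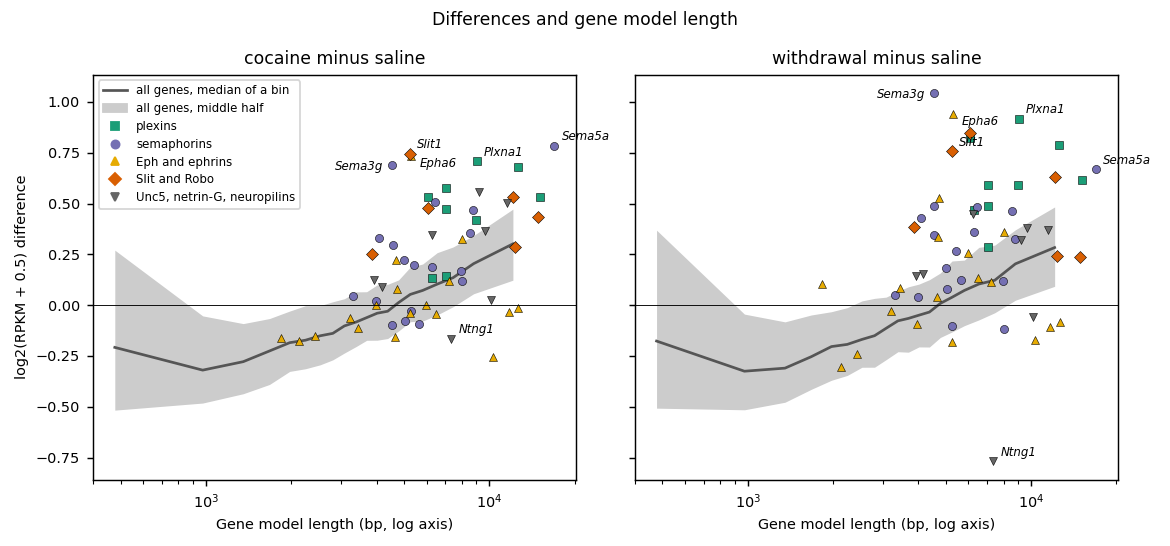
Difference on the log2(RPKM + 0.5) scale against gene model length (bp, log axis) for the 59 guidance genes, for cocaine minus saline (left) and withdrawal minus saline (right). The grey line and band give the median and the quartiles of all tested genes in 20 bins of length, and they climb with length beyond the shortest genes; the plexins (squares) lie on or above the line, and Ntng1 lies below it.

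Every plexin had a higher mean level in the cocaine and withdrawal libraries than in saline, 2 of 9 as calls in cocaine and 6 of 9 as calls in withdrawal, where 2.93% and 3.96% of all tested genes were called higher. After centring by length the calls were 0 of 9 in cocaine and 2 of 9 in withdrawal. The summed level of the 4 A plexins, the usual partners of class 3 and class 6 semaphorins, was 35.6 ± 0.70 RPKM in the saline library, 55.9 ± 1.4 RPKM with cocaine and 60.4 ± 2.2 RPKM after withdrawal (SD) over 3 lanes. All 9 plexins had positive differences in each of the 3 comparisons, at values of 0.13 to 0.71 for cocaine against saline, 0.28 to 0.92 for withdrawal against saline and 0.016 to 0.34 for withdrawal against cocaine. After centring by length these were 0.0079 to 0.50, 0.16 to 0.75 and 0.019 to 0.34. Over the whole table, before centring and at any length, a positive difference was found for 43.5%, 43.4% and 47.9% of genes. This share was not computed for genes of like length. In the longest of the 20 length bins, the first quartile of the difference from saline was above 0, at 0.12 in cocaine and 0.093 in withdrawal.

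Plxna1, a receptor of class 3 semaphorins together with neuropilins, measured 9.41, 8.90 and 9.22 RPKM in the saline lanes, 14.8, 14.8 and 16.3 RPKM in the cocaine lanes and 18.6, 18.4 and 16.4 RPKM in the withdrawal lanes. Every cocaine lane was above every saline lane, and every withdrawal lane above every cocaine lane. It was called higher in cocaine (0.71 ± 0.048, 1.63 times) and in withdrawal (0.92 ± 0.059, 1.89 times). Centred by length, the differences were 0.50, which is no call, and 0.71, which is. In the GENCODE annotation of GRCm38, exons of the antisense gene Gm26811 cover 10.7% of the exon bases of Plxna1, and since the library kit, as the labels describe it, does not mark strand, reads there cannot be assigned to one of them.

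Plxna4, which binds class 3 and class 6 semaphorins, had 7.02, 7.79 and 6.97 RPKM in saline, 11.3, 12.8 and 11.8 RPKM in the cocaine lanes and 12.6, 13.4 and 12.7 RPKM in the withdrawal lanes. Saline lanes lay below all others, and cocaine and withdrawal lanes overlapped. Calls were made in cocaine (0.68 ± 0.069) and in withdrawal (0.79 ± 0.056), and neither was left after length centring (0.38 and 0.51).

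Plxna2 and Plxna3 were called higher in withdrawal and lay just short of the size limit in cocaine, and between withdrawal and cocaine they differed by 0.084 ± 0.044 and 0.016 ± 0.084. Plxna2, a receptor of semaphorins 6A and 6B, had 9.97, 10.1 and 10.4 RPKM with saline, 15.2, 14.2 and 15.4 RPKM with cocaine and 16.5, 15.5 and 15.6 RPKM after withdrawal. Plxna3, a receptor of semaphorin 3F with neuropilin 2, had 8.59, 9.55 and 8.89 RPKM in the saline lanes, 13.0, 15.3 and 12.9 RPKM in those of cocaine and 14.2, 14.1 and 13.2 RPKM in those of withdrawal. In both genes the saline lanes were the low ones, with no overlap. Plxna2 differed by 0.53 ± 0.038 in cocaine and 0.62 ± 0.032 in withdrawal, which became 0.23 and 0.33 after length centring. For Plxna3 the values were 0.58 ± 0.088 and 0.59 ± 0.055, and 0.44 and 0.47 after centring. The withdrawal call of Plxna3 was at the limit: it was lost without withdrawal lane 1 or 2 or saline lane 1 or 3, with a lowest value of 0.56, and with a pseudocount of 1 RPKM (0.57).

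Among the other plexins, Plxnb1 and Plxnb3, receptors of class 4 and class 5 semaphorins, were called higher in withdrawal. Plxnb1 had 14.7, 14.4 and 14.9 RPKM in saline, 20.3, 19.6 and 19.4 RPKM in the cocaine lanes and 23.7, 22.3 and 21.1 RPKM in the withdrawal lanes, 3 sets of lanes in rising order without overlap. Its differences from saline were 0.42 ± 0.024 in cocaine and 0.59 ± 0.049 in withdrawal. The withdrawal call was lost without withdrawal lane 1 or saline lane 2 (lowest 0.55), with a pseudocount of 1 RPKM (0.58) and after length centring (0.39).

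Plxnb3 had 7.61, 7.48 and 9.12 RPKM with saline, 12.8, 11.5 and 11.4 RPKM with cocaine and 14.2, 14.8 and 14.8 RPKM after withdrawal. Again the 3 libraries did not overlap, with withdrawal above cocaine (0.29 ± 0.054, no call). Its difference from saline was 0.53 ± 0.10 in cocaine, without a call, and 0.82 ± 0.089 in withdrawal, called also after length centring (0.75).

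Plexin D1 and plexin C1 differed without a call. Plxnd1, the receptor of semaphorin 3E, had 8.90, 9.09 and 9.86 RPKM in the saline lanes, 11.1, 9.24 and 10.4 RPKM in those of cocaine and 13.4, 13.1 and 12.6 RPKM in those of withdrawal. Its cocaine lanes overlapped saline and its withdrawal lanes lay above both other libraries (0.47 ± 0.049 against saline and 0.34 ± 0.077 against cocaine). Plxnc1, the receptor of semaphorin 7A, had 8.14, 7.67 and 7.65 RPKM in saline, 11.1, 10.9 and 11.2 RPKM in the cocaine lanes and 11.2, 11.5 and 10.9 RPKM in the withdrawal lanes, with overlapping cocaine and withdrawal lanes above saline (0.47 ± 0.029 and 0.49 ± 0.037). Plxnb2, the highest plexin, had 27.4, 25.9 and 26.4 RPKM in cocaine and 29.2, 29.2 and 29.7 RPKM in withdrawal (0.14 ± 0.098 and 0.28 ± 0.095 against saline).

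**Figure D3:**
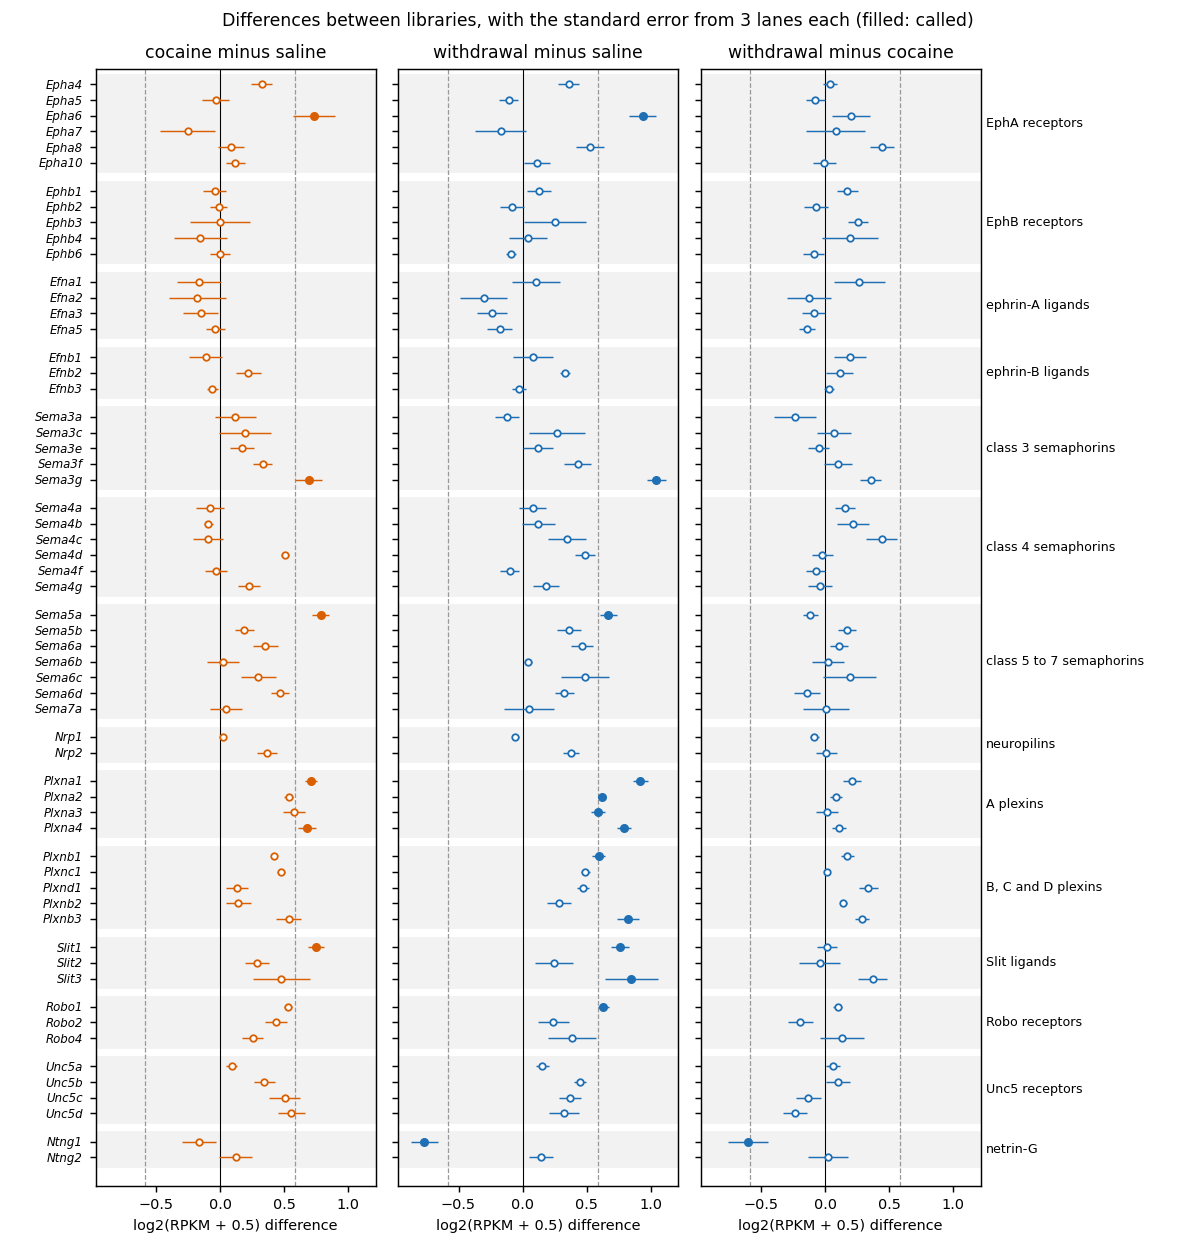
Difference of each of the 59 guidance genes on the log2(RPKM + 0.5) scale for cocaine minus saline, withdrawal minus saline and withdrawal minus cocaine, with bars for the standard error from 3 lanes per library; filled points are called and dashed lines mark 1.5 times. All plexins and Slits lie to the right of 0 in the first 2 panels. The EphB receptors and ephrins lie between -0.18 and 0.22 in the first panel, where of these only Efnb2 is to the right of 0. In the second they lie on both sides of 0, between -0.30 and 0.33.

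Neuropilins, the co-receptors of class 3 semaphorins, had no call. Nrp2 had 5.80, 5.58 and 5.20 RPKM with saline, 7.33, 6.63 and 7.89 RPKM with cocaine and 7.38, 7.69 and 6.92 RPKM after withdrawal, with all saline lanes low (0.37 ± 0.080 and 0.38 ± 0.059). Nrp1 differed by 0.026 ± 0.015 and -0.057 ± 0.028, and by -0.083 ± 0.032 between withdrawal and cocaine, at a saline level of 4.27 ± 0.0084 RPKM (SD over 3 lanes).

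Of the 18 semaphorins tested, the ligands of these receptors, 2 were called higher in both comparisons with saline and none lower. Over all tested genes 2.93% were called higher in cocaine and 3.96% in withdrawal. After length centring 1 of the 18 was left in each, where 3.39% and 4.23% of all genes were called higher. This was Sema3g, which passed the 1 RPKM limit through its cocaine and withdrawal lanes. Sema3g, a secreted class 3 semaphorin known from blood vessels, measured 0.458, 0.624 and 0.578 RPKM in the saline lanes, between 1.02 and 1.33 RPKM in those of cocaine and 1.71, 1.63 and 1.67 RPKM in those of withdrawal. The 3 libraries did not overlap, and the lanes rest on 18 to 55 reads each, the fewest of the called genes. It was called in cocaine (0.69 ± 0.11) and withdrawal (1.04 ± 0.071), also after length centring (0.72 and 1.08), but not in cocaine with a pseudocount of 1 RPKM (0.50).

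Sema5a, a membrane semaphorin with thrombospondin repeats that binds plexin A2 and plexin B3, had 1.99, 1.73 and 1.74 RPKM in saline, 3.64, 3.29 and 3.57 RPKM in the cocaine lanes and 2.99, 3.22 and 3.36 RPKM in the withdrawal lanes. All saline lanes were below all others. The calls in cocaine (0.78 ± 0.065) and withdrawal (0.67 ± 0.067) were both lost after length centring (0.48 and 0.39), and the second also with a pseudocount of 1 RPKM (0.57). Its gene model of 16957 bp was the longest of the 59 genes.

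The other class 3 semaphorins had no call, the largest difference being that of Sema3f, which acts through neuropilin 2 (0.33 ± 0.078 and 0.43 ± 0.11, saline lanes below all others). Sema3c, the highest of class 3 in saline with 7.72, 4.72 and 5.96 RPKM, overlapped between all libraries, and so did Sema3a, with -0.24 ± 0.16 for withdrawal against cocaine. Sema3e, the ligand of plexin D1, differed by 0.17 ± 0.094 in cocaine and 0.12 ± 0.12 in withdrawal.

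Class 4 semaphorins, membrane ligands of B plexins, had no call either. Sema4d, the best known ligand of plexin B1, had 11.2, 10.8 and 10.7 RPKM with saline, 15.9, 15.1 and 16.1 RPKM with cocaine and 14.0, 16.9 and 15.6 RPKM after withdrawal, with saline low and no overlap (0.51 ± 0.034 and 0.48 ± 0.077). Sema4c had the largest difference of the class between withdrawal and cocaine (0.44 ± 0.12), but 7.27% of its exon bases are shared with a gene on the other strand. The highest members in saline, Sema4a and Sema4f (17.4 ± 1.2 RPKM), differed from saline by -0.076 ± 0.11 and -0.030 ± 0.086 in cocaine, with overlapping lanes.

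In classes 5 to 7 all 7 genes had positive differences from saline, at medians of 0.30 in cocaine and 0.36 in withdrawal, and of 0.15 and 0.26 after length centring. A positive difference was found for 43.5% and 43.4% of all tested genes, before centring and at any length, and no share was computed for genes of like length. Sema6a, a membrane ligand of A plexins, had 15.8, 13.3 and 15.3 RPKM in the saline lanes, 18.0, 18.4 and 20.8 RPKM in those of cocaine and 21.5, 20.6 and 19.6 RPKM in those of withdrawal, with saline below the others (0.35 ± 0.098 and 0.46 ± 0.085, no call). Sema6b, the highest, overlapped in all libraries (0.021 ± 0.12 and 0.041 ± 0.032). The largest difference between withdrawal and cocaine was that of Sema6c (0.19 ± 0.21), whose lanes overlapped.

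Of the Slit ligands, Slit1 was called in both comparisons with saline and Slit3 in withdrawal. Slit1, the Slit made mainly by neurons, had 10.6, 10.4 and 11.4 RPKM in saline, 19.4, 17.2 and 18.9 RPKM in the cocaine lanes and 20.3, 17.7 and 18.0 RPKM in the withdrawal lanes. All saline lanes were low, and cocaine and withdrawal lanes overlapped. The differences were 0.75 ± 0.063 and 0.76 ± 0.071 (1.68 and 1.69 times), and 0.69 and 0.72 after length centring, all calls.

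Slit3 varied more between lanes, with 4.39, 5.19 and 3.07 RPKM with saline, 6.27, 6.54 and 5.12 RPKM with cocaine and 8.23, 7.26 and 8.06 RPKM after withdrawal. A cocaine lane lay within the saline lanes, while all withdrawal lanes lay above the rest. It was called in withdrawal (0.85 ± 0.20, and 0.78 after length centring) and not in cocaine (0.48 ± 0.22). Slit2 differed by 0.28 ± 0.094 and 0.24 ± 0.15, which were -0.017 and -0.039 after length centring. Summed over the 3 Slits the level was 17.5 ± 0.42 RPKM in the saline library, 27.5 ± 0.89 RPKM with cocaine and 29.5 ± 1.3 RPKM after withdrawal (SD).

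Robo1, the main neuronal Slit receptor besides Robo2, had 4.75, 4.68 and 5.04 RPKM in the saline lanes, 7.23, 7.26 and 7.08 RPKM in those of cocaine and 7.38, 7.84 and 7.95 RPKM in those of withdrawal. Lanes of each library lay close together and the 3 libraries did not overlap. It was called in withdrawal (0.63 ± 0.043) and lay below the size limit in cocaine (0.53 ± 0.031). The withdrawal call was lost after length centring (0.34) and with a pseudocount of 1 RPKM (0.58).

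Robo2 had 4.78, 3.96 and 4.01 RPKM in saline, 6.17, 5.85 and 5.67 RPKM in the cocaine lanes and 4.42, 5.53 and 5.39 RPKM in the withdrawal lanes, so that cocaine was the high library (0.43 ± 0.086) and withdrawal lay below it (-0.19 ± 0.098), without a call. Robo4, the Robo of blood vessels, differed by 0.25 ± 0.081 in cocaine and 0.39 ± 0.19 in withdrawal, with saline lanes low and no call.

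**Figure D4:**
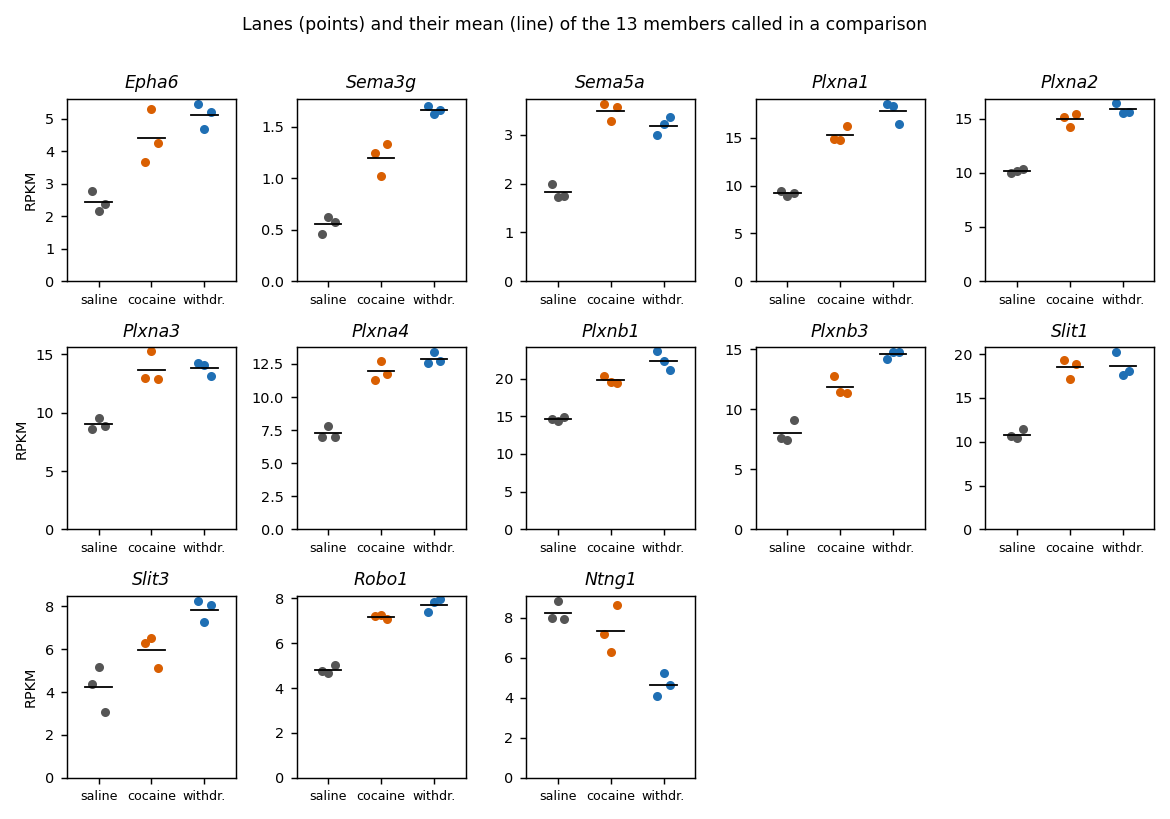
Level in RPKM in each lane (points) with the mean of 3 lanes (line) for the 13 guidance genes called in a comparison, 1 panel per gene with axes from 0. In 12 panels the saline lanes are low, except that 1 cocaine lane of Slit3 lies within them, and in the panel of Ntng1 the withdrawal lanes are low.

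Of the Eph receptors, 1 of 11 was called in each comparison with saline, where 5.33% of all tested genes were called in cocaine and 7.33% in withdrawal. Epha6, an ephrin-A receptor, had 2.77, 2.16 and 2.37 RPKM with saline, 3.67, 5.29 and 4.25 RPKM with cocaine and 5.44, 4.67 and 5.20 RPKM after withdrawal. Its saline lanes were low and its cocaine and withdrawal lanes overlapped. It was called in cocaine (0.73 ± 0.16) and withdrawal (0.94 ± 0.11), with 0.68 and 0.90 after length centring. In saline it lay below Epha7 and in the other libraries above it, each time without overlap.

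Epha4, a receptor that also binds ephrin-Bs and acts at spines, and Epha5 were the highest of the A receptors. In saline they overlapped, at 10.2 to 12.1 RPKM for Epha4 and 10.3 to 12.2 RPKM for Epha5. In cocaine they were apart, at 13.2 to 14.6 and 9.71 to 11.6 RPKM. Epha4 had the higher level there, with differences from saline of 0.32 ± 0.084 in cocaine and 0.36 ± 0.082 in withdrawal and no call. Epha8 was apart in withdrawal, at 5.62, 5.75 and 6.64 RPKM against 4.68, 4.14 and 4.01 RPKM in cocaine (0.44 ± 0.092) and 3.84, 3.69 and 4.53 RPKM in saline (0.53 ± 0.11), just short of the size limit. Epha7 had the lowest difference of the A receptors in cocaine (-0.25 ± 0.22), with overlapping lanes.

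The 5 EphB receptors, which bind ephrin-Bs and take part in forming excitatory synapses, had no call and overlapped in the cocaine and saline lanes in every case. Ephb6, which lacks kinase activity, was the highest with 15.9, 16.6 and 15.6 RPKM in the saline lanes, 17.1, 14.3 and 16.7 RPKM in those of cocaine and 15.5, 14.4 and 15.1 RPKM in those of withdrawal. Ephb1 followed with 9.80 ± 0.88 RPKM in saline. The summed level of the 5 was 35.5 ± 1.9 RPKM in the saline library, 34.9 ± 2.3 RPKM with cocaine and 36.2 ± 1.2 RPKM after withdrawal (SD). The largest differences were -0.15 ± 0.21 for Ephb4 in cocaine, 0.25 ± 0.24 for Ephb3 in withdrawal and 0.26 ± 0.079 for Ephb3 between withdrawal and cocaine, and the saline lanes of Ephb3 ranged most, from 2.99 to 5.54 RPKM.

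None of the 7 ephrins was called, and their summed level was 112 ± 5.6 RPKM in the saline library, 109 ± 1.4 RPKM with cocaine and 112 ± 2.1 RPKM after withdrawal (SD). Efnb3 measured 65.8, 65.4 and 67.3 RPKM in cocaine and 68.7, 64.4 and 69.9 RPKM in withdrawal, overlapping with saline in both (-0.062 ± 0.044 and -0.030 ± 0.055). Efnb1 had the largest difference of the ephrin-Bs between withdrawal and cocaine (0.20 ± 0.12), with overlapping lanes. Efnb2, a ligand of EphB receptors found on neurons and arteries, had 15.5, 15.6 and 14.8 RPKM in saline, 18.6, 15.7 and 19.8 RPKM in the cocaine lanes and 20.1, 19.7 and 18.5 RPKM in the withdrawal lanes, with saline low and no call (0.22 ± 0.10 and 0.33 ± 0.040). Among the ephrin-A ligands, held by a lipid anchor, Efna3 was the highest (13.1 ± 1.8 RPKM in saline) and shares 14.1% of its exon bases with a gene on the other strand. Efna5 followed with 5.72 ± 0.55 RPKM. Efna2 had the largest difference of this group from saline (-0.18 ± 0.22 and -0.30 ± 0.19), with overlapping lanes, and Efna1 the largest between withdrawal and cocaine (0.27 ± 0.20).

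Ntng1, which encodes netrin-G1, was the only one of the 59 genes called lower. It had 7.98, 8.85 and 7.91 RPKM with saline, 7.16, 6.27 and 8.61 RPKM with cocaine and 4.11, 5.24 and 4.61 RPKM after withdrawal. The withdrawal lanes lay below all others, and cocaine overlapped saline. It was called in withdrawal against saline (-0.77 ± 0.10, and -0.89 after length centring) and in withdrawal against cocaine (-0.60 ± 0.15, and -0.60 after length centring). The second call was lost without withdrawal lane 1 or cocaine lane 3 (smallest size -0.49), with a pseudocount of 1 RPKM (-0.56) and after centring within bins of GC content (-0.57). GC content moved with the differences between withdrawal and cocaine, at a Spearman's rho of 0.29 over 13774 genes. As a protein, netrin-G1 is known from axons that arrive from the thalamus and other regions. No list of thalamic markers was used, and a part of such axons in the fall of Ntng1 was not tested. Ntng2, which encodes netrin-G2, had 4.46, 4.28 and 4.21 RPKM in saline and 5.36, 4.23 and 4.91 RPKM in withdrawal (0.14 ± 0.093, overlapping lanes), and shares 14.0% of its exon bases with a gene on the same strand.

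The Unc5 receptors, through which netrins repel axons, had no call but 4 of 4 positive differences from saline, at medians of 0.42 in cocaine and 0.35 in withdrawal and of 0.22 and 0.16 after length centring. Unc5d had 5.26, 4.23 and 5.12 RPKM in the saline lanes, 7.06, 8.02 and 7.05 RPKM in those of cocaine and 5.75, 6.89 and 5.97 RPKM in those of withdrawal, with the 3 libraries apart and cocaine the highest (0.56 ± 0.11 against saline, and -0.23 ± 0.094 for withdrawal against cocaine). Unc5b had 7.11, 7.36 and 7.36 RPKM in saline and the largest difference in withdrawal (0.45 ± 0.046). Unc5a, the highest, differed by 0.089 ± 0.043 and 0.15 ± 0.051.

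**Figure D5:**
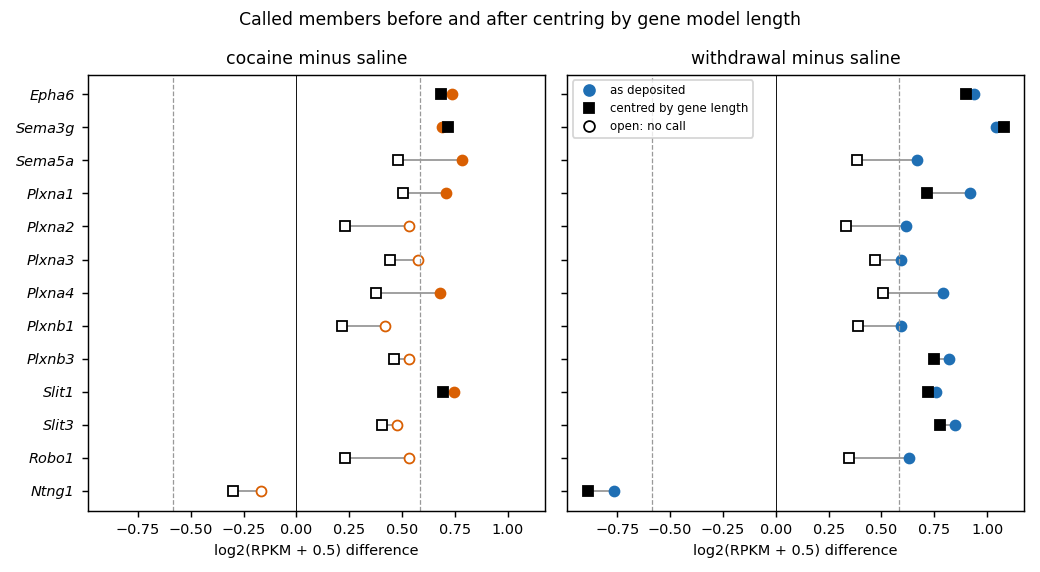
The 13 guidance genes called in a comparison, as differences on the log2(RPKM + 0.5) scale from the deposited values (circles) and after centring by gene model length (squares), for cocaine minus saline and withdrawal minus saline; filled symbols are calls, and dashed lines mark 1.5 times. Epha6, Sema3g and Slit1 stay beyond the line in both panels, while Sema5a, Plxna2, Plxna3, Plxna4, Plxnb1 and Robo1 do not.

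Partner genes of the same pathways were listed by their roles, but with earlier results of these data known. Of 83 listed, 82 were in the table and 79 passed 1 RPKM. In cocaine against saline 1 was called higher and 0 lower, in withdrawal against saline 4 higher and 1 lower, and in withdrawal against cocaine none, where the whole table had 5.33%, 7.33% and 1.02% called. Their medians were 0.097, 0.12 and 0.0037. The call in cocaine was Dcc, the receptor through which netrin-1 attracts axons, with 2.08, 2.13 and 1.81 RPKM in saline, 3.54, 3.39 and 3.36 RPKM in the cocaine lanes and 3.46, 3.47 and 3.38 RPKM in the withdrawal lanes. Saline was low without overlap (0.65 ± 0.062 and 0.65 ± 0.059, and 0.35 and 0.37 after length centring, which are no calls). Ntn1, netrin-1 itself, overlapped between saline and cocaine and was higher in every withdrawal lane (17.7, 16.7 and 16.5 RPKM against 12.2, 12.0 and 12.6 RPKM in saline, 0.45 ± 0.037), below the size limit. Neo1, another receptor of netrins and of repulsive guidance molecules, differed by 0.26 ± 0.083 and 0.26 ± 0.091.

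The other calls in withdrawal were Dscaml1, a cell adhesion molecule (0.61 ± 0.096), Abl2, a kinase of Robo signalling (0.59 ± 0.084), Kdr, a receptor of vascular endothelial growth factor (0.77 ± 0.12), and Cdc42, a small GTPase of the actin cytoskeleton, which fell from 87.8 ± 2.5 to 56.8 ± 4.4 RPKM (-0.63 ± 0.069). After length centring Kdr was still called (0.67), while Dscaml1 (0.48), Abl2 (0.31) and Cdc42 (-0.51) were not. Calls were also gained by centring. With these, 1 partner gene, of Slit-Robo signalling, was called higher in cocaine against saline. In withdrawal against saline 2 were, both of semaphorin and plexin signalling and Kdr among them, and 0 partners were called lower in either. The GTPase-activating proteins that bind Robo differed without a call, with Srgap3 the highest and its saline lanes low (44.7, 42.9 and 42.9 RPKM in saline, 59.6, 59.6 and 58.3 RPKM in cocaine, 0.44 ± 0.022). Srgap1 differed by 0.30 ± 0.10 and 0.46 ± 0.11, and Srgap2 by 0.097 ± 0.12 and 0.29 ± 0.091. The netrin-G ligands had no call. Lrrc4c, which binds netrin-G1, had 35.7, 33.9 and 33.5 RPKM in saline and 32.7, 35.5 and 34.3 RPKM in withdrawal (-0.0086 ± 0.044), and Lrrc4, which binds netrin-G2, differed by -0.066 ± 0.049.

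The tissue label was checked against markers of medium spiny neurons, which were high in every lane. Penk had 1018 ± 39 RPKM in saline, Ppp1r1b 655 ± 16 RPKM, Drd1a 43.2 ± 4.3 RPKM and Drd2 38.3 ± 0.96 RPKM. Of these 4, Ppp1r1b was called lower in cocaine (-0.75 ± 0.038), and none was called in withdrawal. Over the list of 12, 2 were called lower in cocaine (with Tac1) and 1 higher in withdrawal (Pde10a), where 2.41% and 3.96% of all tested genes were. After length centring Ppp1r1b and Tac1 were still called (-0.60 and -0.61) and Pde10a was not (0.41). The summed level of the list by lane was 2056 to 2157 RPKM in saline, 1505 to 1595 RPKM in cocaine and 1822 to 1838 RPKM in withdrawal. In RNA of a whole tissue, fewer cells of a type and less RNA per cell cannot be told apart. Markers of other cells moved too. Endothelial cells are known to express Sema3g, Plxnd1, Robo4, Efnb2 and Kdr. Their markers were called higher for 4 of 9 in cocaine (Flt1, Tek, Cdh5 and Tie1) and for 6 of 9 in withdrawal (these with Cldn5 and Pecam1). Esam was called higher in withdrawal against cocaine. Over all tested genes 2.93%, 3.96% and 0.47% were called higher. After length centring the endothelial counts were again 4 and 6, against 3.39% and 4.23% of all tested genes. Flt1 was lost in both (0.50 and 0.57), Pecam1 gained in cocaine (0.61) and Esam gained in withdrawal (0.73). The summed level of the endothelial list was 59.4 to 61.1 RPKM by lane in saline, 78.2 to 83.3 RPKM in cocaine and 87.9 to 93.0 RPKM in withdrawal, no marker was at 0 in every lane, and its part in the differences above was not tested.

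Some markers of neurons outside the nucleus accumbens, of which cortical cells send axons there, fell. Slc17a7, the vesicular glutamate transporter of cortical neurons, had 18.3 ± 1.0 RPKM with saline, 5.54 ± 0.45 with cocaine and 3.96 ± 0.58 RPKM in withdrawal. It was called lower against saline in cocaine and withdrawal (-1.64 ± 0.078 and -2.08 ± 0.12), and Fezf2 in withdrawal. After length centring Slc17a7 was still called in both (-1.54 and -1.97), and Fezf2 was not (-0.54). These 2 were the calls among 4 cortical markers that passed 1 RPKM, and the list summed to 29.3 to 32.7, 18.0 to 21.6 and 16.4 to 18.2 RPKM by lane in saline, cocaine and withdrawal. Slc17a7 alone fell by about as much as these sums. The median difference of the 4 markers from saline was -0.13 in cocaine and -0.56 in withdrawal. Of 8 septal or hypothalamic markers, Pmch and Oxt were called lower in cocaine, and these with Zic2 and Avp in withdrawal, with sums of 305.0 to 332.4, 235.6 to 266.3 and 236.0 to 258.3 RPKM. Of these, the call of Zic2 was lost after length centring (-0.57). Over all tested genes 2.41% were called lower in cocaine and 3.37% in withdrawal. Ttr, a choroid plexus marker, was called higher in cocaine than in saline and lower in withdrawal than in cocaine (7.51 ± 2.4 RPKM in the cocaine library, against 2.37 ± 0.94 in saline and 0.949 ± 0.36 in withdrawal), and in the cocaine library that list summed to 13.4 to 17.3 RPKM by lane, against 7.24 to 11.3 in saline and 7.13 to 10.6 in withdrawal. S100b, an astrocyte marker, was called lower in withdrawal (-0.67 ± 0.053), which was no call after length centring (-0.42), and the oligodendrocyte, precursor, microglial and meningeal lists had no call. What part these cells had in the values of the guidance genes was not tested.

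Lane totals were 5546362 to 12026754 and library totals 19452882 to 26006605, so that 1 read in a gene model of 2 kb is worth 0.0416 to 0.0901 RPKM. The median SD between lanes of log2 values was 0.10 to 0.11 for the guidance genes, and lanes of one library correlated over genes at 0.976 to 0.985. The labels show no batch beyond the lanes.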

How the data were processed

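RPKM values were computed by the authors for 3 lanes of each library, with a composite per library that equals the depth-weighted mean of its lanes, per the file headers and values. The submitters' processing notes name Bowtie 0.12.7 and the build mm9. How reads were counted, and on which annotation, is not given in the sources used here. Polyadenylated RNA was reverse transcribed from random primers and read for 37 cycles from each end, per the labels' protocols. Groups and lane numbers come from the sample titles.

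Genes averaging 1 RPKM or more over the 9 lanes were tested on log2(RPKM + 0.5), averaged over lanes. A call needed a difference of at least 1.5 times and no overlap of lanes. Gene model lengths were recovered from the deposited values, which are whole multiples of 1 read divided by 37 (relative tolerance 1e-07), and as those are fractions of reads no count test was run. Their median ratio to the reference annotation was 1.06, and GC content came from that reference for 98.0% of tested genes. It is another build than the authors used, so coordinates are given for RefSeq windows alone. Alternatives were the pseudocount, the filter, the size limit, the lane condition, scaling, centring by length or GC content, the composites, a block for the lane number and the omission of each lane in turn. Centring in 100 length bins was added after seeing the data. Scripts were tested on simulated data. Python 3.11.15, numpy 2.4.6, pandas 2.3.3, scipy 1.17.1 and matplotlib 3.10.9 were used.

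The genes and lists were chosen with earlier results of these data known. Named genes were those called, the 2 highest in saline and the largest difference of each role group, those nearest the 1 RPKM limit, called partners and markers, and Dcc, Neo1, Ntn1, Lrrc4, Lrrc4c, Srgap1 to Srgap3, Ppp1r1b, Drd1a, Drd2 and Penk. Other genes were named after their values were seen.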

Additional observations from a re-analysis of the deposited data

How the results depend on the processing

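Counts of called guidance genes were 6 in cocaine against saline, 13 in withdrawal against saline and 1 in withdrawal against cocaine. They were 3, 7 and 1 after centring in 20 bins of length, and again 3, 7 and 1 in 100 bins, an alternative chosen after seeing the data because the longest of the 20 bins reaches from 9968 to 129833 bp and holds 11 of the 59 genes. Of all tested genes 5.33%, 7.33% and 1.02% were called, and 4.09%, 5.47% and 1.01% after centring in 20 bins. A size limit of 25% gave 22, 29 and 6 guidance genes (37.3%, 49.2% and 10.2%), where 21.9%, 26.3% and 4.65% of all tested genes were called. One of 2 times gave 0, 1 and 0, where 1.04%, 1.35% and 0.192% of all tested genes were called. For cocaine against saline, a filter of 5 RPKM gave 3 and scaling to the 75th percentile 11. That scaling called 5.26% of all tested genes, and the share for the filter is not given here. For withdrawal against cocaine, a pseudocount of 1 RPKM and GC centring gave 0 each, and no filter gave 2, the second being Sema3b. GC centring called 0.871% of all genes with a GC content there. Leaving out 1 lane gave 6 to 8, 11 to 14 and 0 to 1. For single genes, 112 of 120 values without 1 lane were still calls, and the lost ones were those of Plxna3, Plxnb1 and Ntng1. No value of a called gene changed sign under any alternative run. The lane numbers do not pair the libraries: lanes of the same number deviated together at correlations of -0.0512 to 0.0764. With the replicate block the counts were 6, 13 and 1. Depth limits the lowest genes most: lanes of Sema3g rest on 18 to 55 reads.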

Other observations

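Below the 1 RPKM limit, 2 of the 7 guidance genes met the size and lane conditions in 1 comparison each, named here after their values were seen. The share of all genes below the limit that met them is not given here, so the count has no reference. Epha2, an ephrin-A receptor, had 0.332, 0.209 and 0.233 RPKM in the saline lanes and 0.980, 0.643 and 0.670 RPKM in the withdrawal lanes, with no overlap (a difference of 0.73 ± 0.14 on the log2(RPKM + 0.5) scale). Sema3b, a secreted semaphorin, had 0.945 RPKM or more in the cocaine lanes and 0.465, 0.664 and 0.416 RPKM in the withdrawal lanes (-0.67 ± 0.13), again with no overlap. These values rest on few reads: 18, 6 and 8 in the saline lanes of Epha2, and 11.0, 18.8 and 12.9 in the withdrawal lanes of Sema3b.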
